A study of Mus musculus with 12 samples.

Results

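The Nr4a family comprises the orphan nuclear receptors Nr4a1, Nr4a2 and Nr4a3, and all 3 genes were found by symbol among the 54446 genes counted in both tables of the series. Hippocampus and cerebellum were taken for RNA sequencing from 3 mice labelled SYT14 knockout and 3 labelled WT. This gave 12 libraries in 4 groups of 3, and each of the 6 animals gave both tissues. The sources used here give no age, strain or treatment, and do not say which part of Syt14 was altered or in which cells. The family was chosen by its log2 fold changes of knockout over wild type in these same libraries, so the values of knockout against wild type are given as a description and support nothing.

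Nr4a receptors are transcription factors that bind DNA through a zinc finger domain and have no known physiological ligand, so their activity follows mainly the amount of protein made. In neurons their genes are switched on rapidly and briefly by calcium and cAMP signals, largely through the factor CREB and its coactivators of the Crtc family, and they count among the immediate early genes. In the hippocampus the family is known for a role in the consolidation of memory. Nr4a2 is also required for midbrain dopamine neurons, and Nr4a1 and Nr4a2, unlike Nr4a3, can pair with the retinoid X receptors.

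In GRCm38 with GENCODE M21, Nr4a1 (ENSMUSG00000023034) lies on the plus strand at chr15:101254269-101274795. Nr4a2 (ENSMUSG00000026826) lies on the minus strand at chr2:57106830-57124003. Nr4a3 (ENSMUSG00000028341) lies on the plus strand at chr4:48045153-48086447. All are protein coding, and no other annotated gene overlaps any of them, so their counts have no antisense partner there. The sequence before each RefSeq start site is shown because CREB binds the cAMP response element (CRE), written TGACGTCA in full and often present as its core TGACG alone. Capitals mark the core on either strand (TGACG, or CGTCA where it lies on the opposite strand). The stretches are chr15:101266596-101266845 for Nr4a1, chr2:57124004-57124253 for Nr4a2 and chr4:48045055-48045152 for Nr4a3, in GRCm38.p6 and in the direction of each gene; for Nr4a3 the part that GENCODE annotates as exon is not shown.

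Nr4a1: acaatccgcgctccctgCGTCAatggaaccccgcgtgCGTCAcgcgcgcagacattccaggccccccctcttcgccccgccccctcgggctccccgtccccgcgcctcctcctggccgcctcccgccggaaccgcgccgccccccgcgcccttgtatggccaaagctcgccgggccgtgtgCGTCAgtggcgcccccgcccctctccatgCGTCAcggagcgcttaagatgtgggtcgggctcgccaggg
Nr4a2: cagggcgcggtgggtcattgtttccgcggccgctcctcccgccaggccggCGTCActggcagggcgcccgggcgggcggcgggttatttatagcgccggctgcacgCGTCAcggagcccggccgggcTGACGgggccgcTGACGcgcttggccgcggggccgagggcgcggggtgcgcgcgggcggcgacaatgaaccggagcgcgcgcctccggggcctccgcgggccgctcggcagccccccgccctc
Nr4a3: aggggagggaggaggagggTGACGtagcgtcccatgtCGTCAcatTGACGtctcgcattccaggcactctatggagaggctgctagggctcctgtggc

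Each of the 3 genes held 4 cores in the 250 bases before its RefSeq start site. For Nr4a3, 3 of them are in the stretch shown, and the other, 147 to 143 bases before the start, is in the part not shown. Of 32851 such windows of RefSeq promoters, 17.8% held at least 1 core and 0.137% held 4 or more, counted on both strands, with a full CRE counting as 2 overlapping cores. The full CRE was in 1.55% of all windows and in none of the 3, and the Nr4a binding element NBRE (AAAGGTCA) was in 1.34% and in none of the 3. The cores of Nr4a1 were spread over the window, with 2 near its far end and 2 within 69 bases of the start, whereas those of Nr4a2 and Nr4a3 all lay more than 100 bases from it. These distances are counted from the RefSeq start, and the GENCODE spans of Nr4a1 and Nr4a3 begin further upstream. A match describes these letters and shows no binding.

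**Figure D1:**
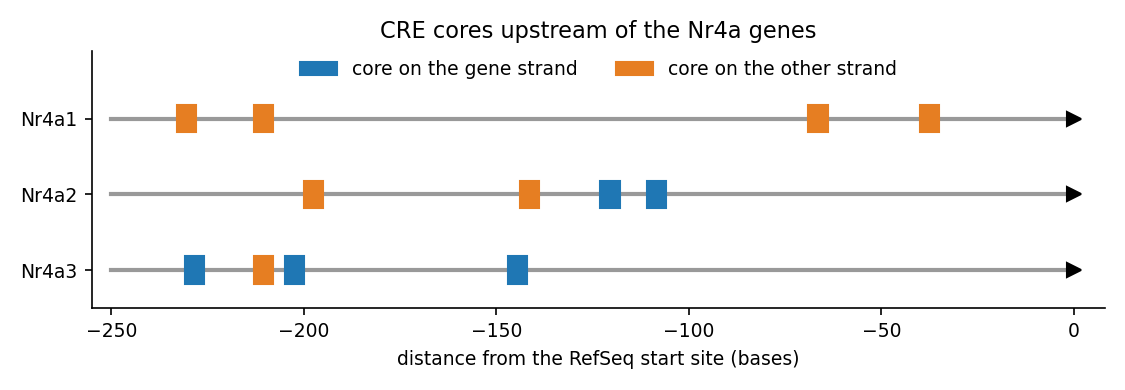
Position of the CRE core in the 250 bases before the RefSeq start site of each Nr4a gene (x axis, bases from the start site, which the arrowhead marks); boxes are cores on the strand of the gene or on the other strand. Each gene has 4 cores, and those nearest to a start site are the 2 of Nr4a1.

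Libraries held 24355572 to 34971359 counts, and the members were read by 180 to 3476 counts each, far above a floor of 3 counts (0.0858 to 0.123 CPM, counts per 1000000 counts of the library). Syt14 stood at 28.0 to 30.6 CPM in the knockout and 38.2 to 38.9 CPM in the wild-type hippocampus, and at 30.3 to 30.7 against 33.4 to 38.2 CPM in the cerebellum. It was thus lower but far from absent in the libraries labelled knockout, and counts from outside the altered part of a gene check nothing about its loss. Tissue labels matched the defining markers: Neurod6, a factor of forebrain pyramidal neurons, stood at 176 to 193 CPM in hippocampus and at 7.01 to 8.49 CPM in cerebellum, and Gabra6, a receptor subunit of cerebellar granule cells, at 590.3 to 655 CPM in cerebellum and at most 0.0374 CPM in hippocampus. Column headers carry the tag L1 for every hippocampus library and L4 for every cerebellum library, so what the tag marks cannot be told apart from tissue.

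All 3 members were expressed in both tissues, and their means stood in the same order of groups: knockout hippocampus, wild-type hippocampus, knockout cerebellum, wild-type cerebellum. Levels are CPM scaled by TMM factors over the 12 libraries. In bulk tissue, fewer cells of a type and less RNA per cell cannot be told apart.

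Nr4a1, first known as a gene induced by nerve growth factor, stood at 93.7, 81.1 and 114 CPM in the knockout hippocampus and at 67.8, 64.9 and 85.9 CPM in the wild-type hippocampus. It stood at 45.1, 42.5 and 54.0 CPM in the knockout cerebellum and at 27.6, 28.3 and 38.2 CPM in the wild-type cerebellum. The genotypes overlapped in the hippocampus, while in the cerebellum every knockout library lay above every wild-type library, and both hippocampus groups lay above both cerebellum groups.

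Nr4a2, the receptor needed by dopamine neurons, stood at 70.5, 69.8 and 99.4 CPM in the knockout hippocampus against 63.6, 65.9 and 85.9 CPM in the wild-type hippocampus. In the cerebellum it stood at 45.0, 43.9 and 53.3 CPM in the knockout against 32.5, 24.8 and 27.0 CPM in the wild type. Again the genotypes overlapped in the hippocampus and did not in the cerebellum.

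Nr4a3, the member that acts without a retinoid X receptor partner, was the steadiest in the hippocampus, at 122, 123 and 106 CPM in the knockout against 111, 112 and 99.8 CPM in the wild type. In the cerebellum it stood at 54.3, 45.0 and 48.3 CPM in the knockout against 27.1, 22.0 and 5.47 CPM in the wild type. Wild-type cerebellum library 3 therefore stood far below the other wild-type libraries of its group for this gene alone among the members.

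**Figure D2:**
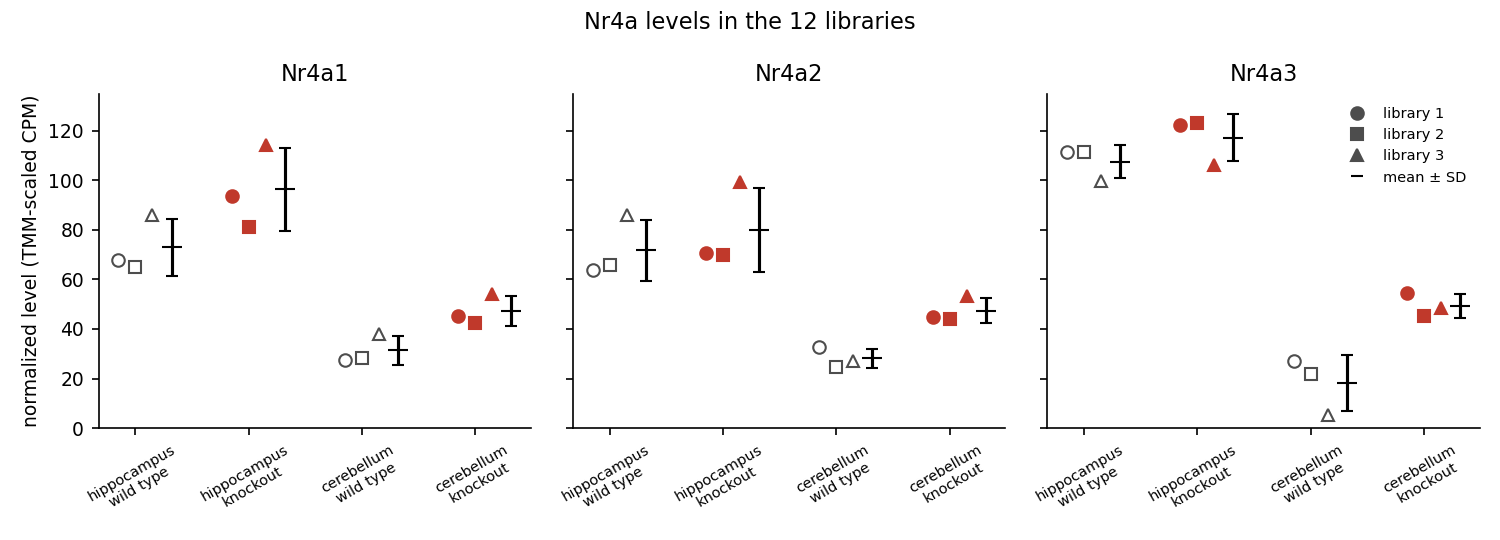
Normalized level (y axis, TMM-scaled CPM) of each Nr4a gene in the 12 libraries, by group (x axis); points are libraries, open for wild type and filled for knockout, with the mean and SD (n = 3) beside them. In the cerebellum all knockout points lie above all wild-type points for each gene, and Nr4a3 falls to 5.47 CPM in wild-type library 3.

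Members differed in how much they varied between animals of a group. The coefficient of variation was 12.8 to 18.9% for Nr4a1 and 10.8 to 21.2% for Nr4a2 over the 4 groups, beside a median of 6.10 to 6.77% over genes with at least 1 CPM. Nr4a3 stood near that median in the wild-type hippocampus (6.23%) and at 62.1% in the wild-type cerebellum, where 99.9% of genes varied less. In each of the 4 groups the highest Nr4a1 value was that of library 3, and Nr4a2 was highest in library 3 in 3 of the 4. The hippocampus and cerebellum libraries of one number and genotype come from the same animal, whereas same-numbered libraries of the 2 genotypes come from different animals.

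Per unit of exon length, Nr4a1 had the highest mean of the family in each group, though not in every library. In wild-type cerebellum library 1 Nr4a2 stood at 34.6 and Nr4a1 at 33.9 TPM, and in wild-type hippocampus library 2 Nr4a3 stood at 74.6 and Nr4a1 at 74.0 TPM (transcripts per 1000000, counts divided by the merged exon length and scaled within the library). Summed over the 3 genes, the level came to 222 ± 15.9 TPM in the wild-type hippocampus and 264 ± 26.4 TPM in the knockout hippocampus (SD, n = 3). The sum was 81.9 ± 5.53 TPM in the wild-type and 145.5 ± 14.3 TPM in the knockout cerebellum. In the hippocampus, Nr4a1 made up 36.7 ± 2.36% of the wild-type sum and 41.0 ± 2.79% of the knockout sum, and the remainder was shared about evenly, with Nr4a2 at 31.2 ± 2.46% and Nr4a3 at 32.1 ± 4.65% in the wild type. In the cerebellum Nr4a3 was the smallest part in every library: its share was 22.2, 20.6 and 4.96% in the wild type and 27.5, 24.7 and 22.0% in the knockout. Nr4a1 ranked above 91.9 to 94.5% of detected genes by TPM in the knockout hippocampus, and Nr4a3 above 47.7 to 66.6% in the wild-type cerebellum. With the length of the longest principal transcript, an alternative chosen after the data were seen, the Nr4a1 share of the wild-type hippocampus was 42.2%, and there Nr4a2 (29.7%) exceeded Nr4a3 (28.2%).

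**Figure D3:**
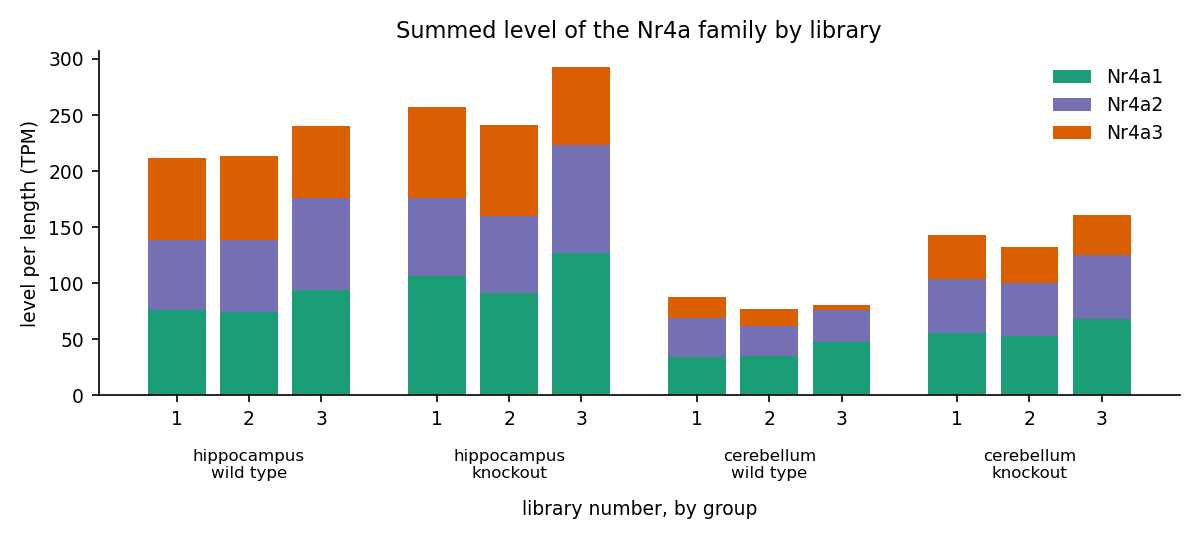
Stacked level per length (y axis, TPM) of Nr4a1, Nr4a2 and Nr4a3 in each library (x axis, library number by group). The sum runs from 77.3 TPM in wild-type cerebellum library 2 to 293 TPM in knockout hippocampus library 3, and the Nr4a3 part nearly vanishes in wild-type cerebellum library 3.

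The tissue comparison asked how the members differ between regions within each genotype. It used the same libraries whose knockout and wild-type values led to the choice of the family, so it is not independent of that choice. Hippocampus exceeded cerebellum for all 3 members in both genotypes. In the wild type the log2 fold change was 1.22 ± 0.12 for Nr4a1, 1.36 ± 0.12 for Nr4a2 and 2.59 ± 0.33 for Nr4a3 (SE, n = 3), with edgeR adjusted p-values of 1.78e-06, 3.06e-07 and 1.58e-05. These are 2.33-fold, 2.57-fold and 6.02-fold differences. All 3 members passed as higher in hippocampus, in a contrast where 33.1% of 18128 genes did so and 66.1% passed in either direction, so passing was common. In 3 of 3 members the tissues did not overlap, beside 35.0% of genes wholly higher in hippocampus and 70.7% separated in either direction. In the knockout the log2 fold changes were 1.02 ± 0.12, 0.75 ± 0.13 and 1.25 ± 0.08 (edgeR adjusted p-values of 6.58e-05, 8.36e-04 and 7.88e-07), and again all 3 members passed as higher, as did 31.6% of 18200 genes (64.1% in either direction). The tissues did not overlap for 3 of 3 members, beside 34.5% of genes wholly higher and 70.3% in either direction. Without wild-type cerebellum library 3, the wild-type difference of Nr4a3 was 2.14 ± 0.09. Microglia markers, whose cells also express Nr4a1, summed to 313 to 354 CPM in wild-type hippocampus and 143 to 149 CPM in wild-type cerebellum over 14 markers, and their part in the tissue difference was not tested.

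Within each animal the same held. The hippocampus of the 3 knockout animals exceeded the cerebellum 2.08-fold, 1.91-fold and 2.11-fold for Nr4a1, and that of the 3 wild-type animals 2.46-fold, 2.29-fold and 2.25-fold. For Nr4a3 the factor was 2.25, 2.73 and 2.20 in the knockout animals and 4.11, 5.08 and 18.2 in the wild-type animals. The mean log2 difference over the 6 animals was 1.12 ± 0.128 for Nr4a1, 1.04 ± 0.412 for Nr4a2 and 2.05 ± 1.15 for Nr4a3 (SD), positive in 6 of 6 animals each time. The balance of the family also differed between tissues. The printed differences were larger in wild-type than in knockout animals. That comparison of genotypes was not tested and uses the contrast that led to the choice of the family. Hippocampus minus cerebellum, the log2 ratio of Nr4a1 to Nr4a3 was -0.93 ± 1.10 and that of Nr4a2 to Nr4a3 -1.01 ± 0.80 (SD), each lower in hippocampus in 6 of 6 animals. For Nr4a1 to Nr4a3 the values were -0.74, -1.15 and -3.02 in the wild-type and -0.12, -0.52 and -0.06 in the knockout animals. For Nr4a2 to Nr4a3 they were -1.07, -0.94 and -2.52 against -0.53, -0.78 and -0.24. Each of these 5 mean differences had p = 0.03125 in a two-sided exact permutation test of signs, the smallest that 6 animals allow, and 0.0375 after Benjamini-Hochberg adjustment over 6 tests. Without wild-type animal 3, left out after its values were seen, the 2 ratios differed by -0.52 ± 0.45 and -0.71 ± 0.33 (SD), lower in 5 of 5 animals, with an exact permutation p of 0.0625, the smallest that 5 animals allow. The ratio of Nr4a1 to Nr4a2 differed by 0.079 ± 0.356 (exact permutation p = 0.594) and was higher in hippocampus in 4 of 6 animals, so no difference was resolved.

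Knockout was then set against wild type within the hippocampus. No member passed the test. Nr4a1 stood at 96.3 ± 16.7 against 72.9 ± 11.4 CPM (SD, n = 3), a log2 fold change of 0.41 ± 0.12 (SE) with a 95% interval of 0.15 to 0.66 and an edgeR adjusted p of 0.995. Nr4a2 had 0.16 ± 0.13 (interval -0.14 to 0.45) and Nr4a3 0.12 ± 0.07 (-0.02 to 0.27), with the same adjusted p. With edgeR 0 of 3 members passed beside 0.00% of 17693 genes, and 1 member had an unadjusted p under 0.05, as did 767 of all genes. DESeq2 and limma-voom called 0 members as well. In 0 of 3 members the genotypes separated, where 5.13% of genes lay wholly higher in the knockout and 9.81% separated in either direction. Without knockout library 3 the value of Nr4a1 was 0.26 and that of Nr4a2 was -0.033, and without wild-type library 3 they were 0.54 and 0.30. Summed over 14 markers each, meninges and fibroblast genes stood at 98.1 to 108 CPM in the knockout against 105 to 203 CPM in the wild type, and endothelium and pericyte genes at 382 to 427 against 441 to 497 CPM; with the meninges score as a covariate Nr4a1 had 0.35 ± 0.15, and the part of the vessel genes was not tested.

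In the cerebellum the lowest knockout library lay above the highest wild-type library for all 3 members, and none passed the test over all genes. Nr4a2 came closest, at 47.4 ± 5.11 against 28.1 ± 3.96 CPM (SD, n = 3), a log2 fold change of 0.76 ± 0.10 (SE, 95% interval 0.54 to 0.98) and an edgeR adjusted p of 0.0559. Nr4a1 stood at 47.2 ± 6.05 against 31.3 ± 5.91 CPM, with 0.59 ± 0.12 (0.32 to 0.86) and an adjusted p of 0.388. Nr4a3 stood at 49.2 ± 4.71 against 18.2 ± 11.3 CPM, with the highest value and the widest interval, 1.45 ± 0.38 (0.61 to 2.29), and an adjusted p of 0.602. With edgeR 0 of 3 members passed, beside 0.0113% of 17733 genes, and all 3 had an unadjusted p under 0.05, as did 1200 of all genes. DESeq2 called 2 members, Nr4a1 and Nr4a2 (adjusted p = 7.40e-04 and 2.19e-09), and limma-voom called 0. The DESeq2 count over all genes is given in the closing section. In 3 of 3 members the genotypes separated upward, beside 6.48% of all genes (11.9% in either direction); since the family was put forward with this contrast known, nothing is read from either share.

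The call in the cerebellum turned on single libraries and on how the spread was modelled. With the library number as a block, Nr4a1 (0.60 ± 0.06, edgeR adjusted p = 0.00767) and Nr4a2 (0.76 ± 0.09, 0.0127) passed, while Nr4a3 had 1.58 ± 0.29 (0.0770). Same-numbered libraries come from different animals. Running numbers in the column headers place them next to each other, but what those numbers mark is not stated. No label states a pairing, so nothing is read from the calls of this block. Without knockout library 3 or without wild-type library 1, Nr4a2 passed (adjusted p = 0.0342 and 0.0425). Without wild-type library 3, Nr4a3 passed at 1.01 ± 0.10 (edgeR adjusted p = 0.0228), and Nr4a1 had 0.76 ± 0.10 (0.110). With 1 library left out, edgeR called 2 to 33 of all genes. The count over all genes for the block is given in the closing section.

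Markers of other tissue stood at uneven levels in the cerebellum libraries. The 14 brainstem markers summed to 82.8, 117 and 61.1 CPM in the knockout and to 64.7 to 73.7 CPM in the wild type, and 10 choroid plexus markers to 1656, 3151 and 210.4 against 2009 to 4777 CPM. Of the brainstem markers 7 were tested by genotype, and 6 of 7 lay above 0 with a median log2 fold change of 2.49. With edgeR 5 had an unadjusted p under 0.05, as did 1200 of 17733 genes, and 0 passed. Slc6a2 and Dbh, which mark noradrenaline neurons, stood at 6.71, 15.5 and 0.242 CPM and at 3.61, 10.8 and 0.104 CPM in the knockout, and at no more than 2.05 and 1.11 CPM in the wild type. Knockout library 3, with the lowest brainstem sum of all 6 and with Ttr, the defining transcript of choroid plexus, at 0.622 CPM, held 54.0 CPM of Nr4a1, 53.3 of Nr4a2 and 48.3 of Nr4a3. This is 1 library, and nothing is read from it. With the brainstem score as a covariate, Nr4a1 (0.73 ± 0.11, edgeR adjusted p = 0.0289) and Nr4a2 (0.82 ± 0.11, 0.0163) passed and Nr4a3 had 1.39 ± 0.40 (0.324). That fit holds 6 libraries and the contrast by which the family was chosen, so it is a description. Its count over all genes is given in the closing section. All 10 choroid plexus markers had a log2 fold change below 0 (median -1.11), and the part of choroid plexus was not tested. The 14 microglia markers summed to 164 to 180.2 CPM in the knockout against 143 to 149 CPM in the wild type, without overlap, and their part in the result was not tested.

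**Figure D4:**
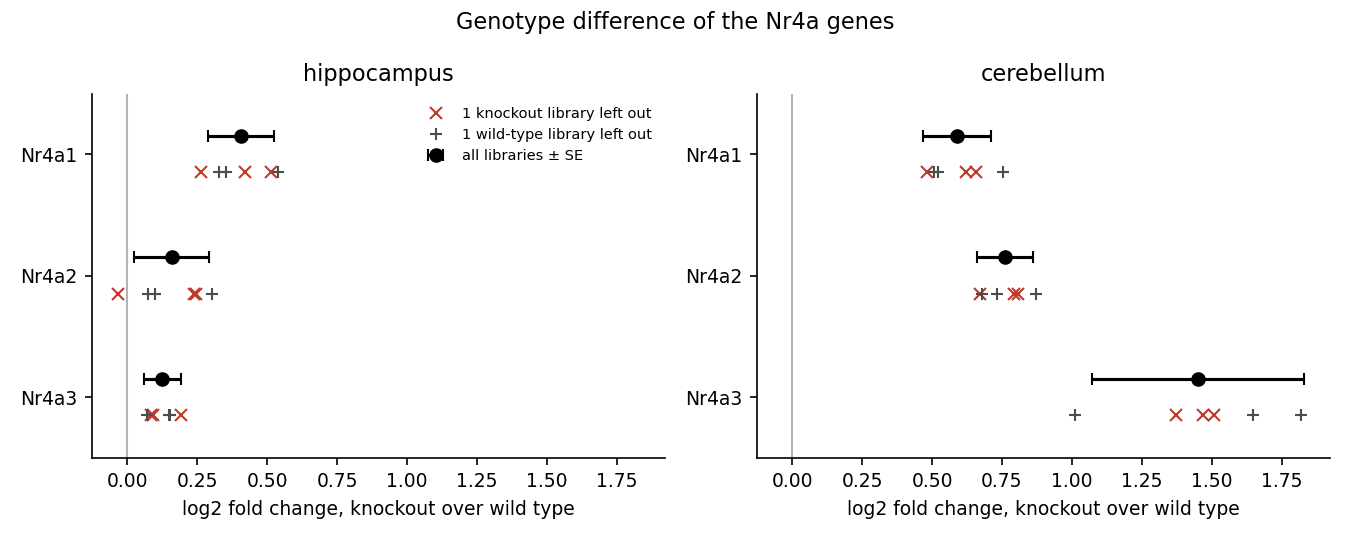
Log2 fold change of knockout over wild type (x axis) for each Nr4a gene in hippocampus and cerebellum; black points are the edgeR values over all libraries with their SE, crosses the values with 1 knockout library left out and plus signs those with 1 wild-type library left out. In the cerebellum the values stay between 0.48 and 1.82, and in the hippocampus Nr4a2 falls to -0.033 without knockout library 3.

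Wild-type cerebellum library 3 stood apart downward for Nr4a3 and upward for Nr4a1. It held 180 counts of Nr4a3, or 22.3% of the mean of the other wild-type libraries. Of 15020 genes with at least 1 CPM there, 2 others stood lower by this measure, Cdhr3 (20.6%) and Lrrc71 (21.9%), both at or below 2.29 CPM in every library of the group and named after their values were seen. In the same library Nr4a1 was at 137% of that mean, a level that 250 of the 15020 genes, itself included, reached or passed, and Nr4a2 was at 94.1%. The activity genes were not low in it as a group: 13 of 30 lay below the mean of the other 2 libraries, with a median of 105% and a range from 68.9% for Dusp4, a phosphatase of the ERK kinases, to 217% for Npas4, a neuronal activity factor. Fos, named after its values were seen, stood at 39.4 CPM in that library and at 20.2 and 16.9 CPM in the others. The hippocampus of the same animal held 99.8 CPM of Nr4a3, close to the 111 and 112 CPM of the other wild-type animals.

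The fit over all 12 libraries asked whether the genotype difference itself differed between tissues. The cerebellum value exceeded that of the hippocampus by 0.19 ± 0.21 for Nr4a1 (SE, 95% interval -0.25 to 0.62), by 0.61 ± 0.21 for Nr4a2 (0.17 to 1.05) and by 1.33 ± 0.42 for Nr4a3 (0.44 to 2.23), on the log2 scale. The edgeR adjusted p-values were 0.973, 0.896 and 0.848, and 0 of 3 members passed beside 0.0105% of 19027 genes. Of the 3, 2 members had an unadjusted p under 0.05, as did 1016 of all genes, and DESeq2 and limma-voom called 0. A difference between the tissues was therefore not resolved for any member. For Nr4a3 the value was 0.89 ± 0.13 without wild-type cerebellum library 3 (adjusted p = 0.0784).

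The genes whose levels followed each member most closely were ranked among 12922 others by Pearson's r over the 12 libraries, after the mean of each tissue was subtracted. These libraries share animals and include the genotype contrast, and r is a description. For Nr4a1 the first 5 were Fxyd5, a small regulator of the sodium pump (r = 0.935), Frs3, an adaptor of growth factor receptors (0.914), Ovca2 (0.913), Spag6, a protein of cilia (0.885), and Fos, an immediate early transcription factor (0.882). For Nr4a2 they were Arpp19, an inhibitor of a protein phosphatase (0.923), Zfp35 (0.892), Fxyd5 (0.873), Cck, the neuropeptide cholecystokinin (0.864), and Trib1, a pseudokinase (0.860). For Nr4a3 they were Spry4, an inhibitor of ERK signalling (0.951), Ryr3, a calcium release channel (0.919), Lats2, a kinase of the Hippo pathway (0.918), Klf4 (0.916) and Prkd2, a protein kinase (0.892).

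Within the family, Nr4a1 and Nr4a2 followed each other (r = 0.823, in which Nr4a2 ranked 23 of 12922 for Nr4a1), both in the hippocampus (0.846 over 6 libraries) and in the cerebellum (0.826). Nr4a3 followed Nr4a2 less closely (0.644) and Nr4a1 less still (0.292). In the cerebellum its r was 0.775 with Nr4a2 and 0.382 with Nr4a1, whereas in the hippocampus it was -0.589 with Nr4a2 and -0.12 with Nr4a1. Likewise, the r of Spry4 with Nr4a3 was 0.971 in the cerebellum and -0.124 in the hippocampus. In a design with genotype groups and a library that stands apart, such values can follow a few libraries.

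Other immediate early genes give the setting of the family. For this and the later lists, the edgeR genotype test gave an unadjusted p under 0.05 for 767 of 17693 genes in the hippocampus. In the cerebellum it did so for 1200 of 17733 genes. Of 35 activity genes, 0 passed in the hippocampus with edgeR (8 had an unadjusted p under 0.05; DESeq2 and limma-voom called 0). Their median log2 fold change was 0.13, with 29 of 35 above 0, beside 0.0017 and 50.8% above 0 over all genes; the median was 0.25 without wild-type library 3 and 0.08 without wild-type library 2. Dusp5, an ERK phosphatase, stood at 29.2 ± 0.979 against 22.3 ± 1.85 CPM (0.39 ± 0.08), and Tiparp, an ADP-ribosyltransferase, at 26.0 ± 2.61 against 19.7 ± 1.51 CPM (0.40 ± 0.09, SE). In the cerebellum 1 of 34 passed, beside 0.0113% of all genes: Fosl2, a factor of the AP-1 family, rose from 8.48 ± 0.565 to 18.7 ± 1.41 CPM (1.15 ± 0.09, edgeR adjusted p = 0.00157). There the median was 0.13 with 26 of 34 above 0, beside 0.0025 and 51.0% over all genes. DESeq2 called 2 there, Bdnf and Fosl2, and limma-voom 1. Without wild-type library 3 edgeR called 2, Fosl2 and Fos, and the median was 0.20.

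**Figure D5:**
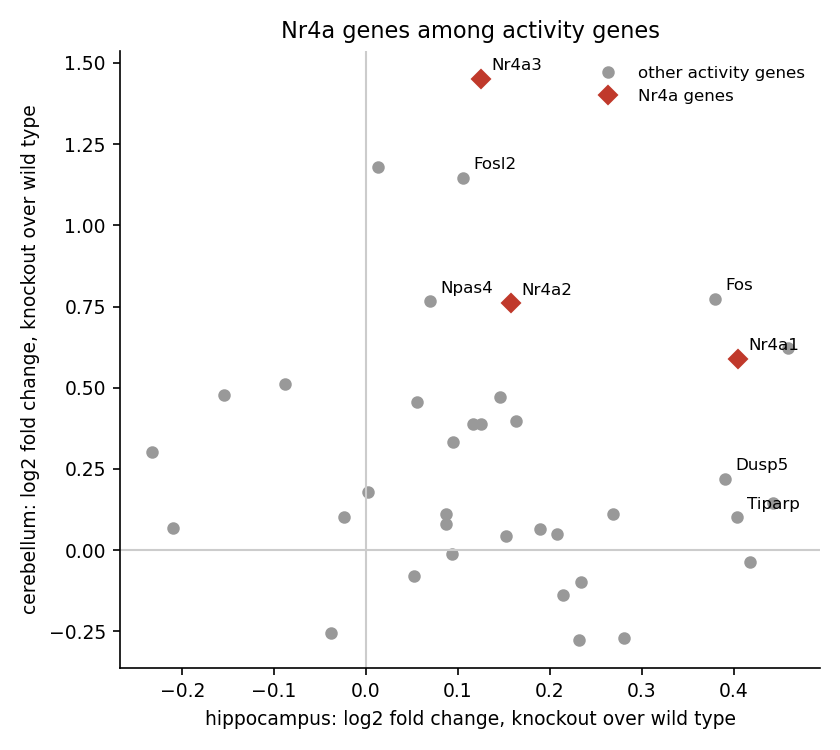
Log2 fold change of knockout over wild type in the cerebellum (y axis) against the hippocampus (x axis) for the Nr4a genes (diamonds) and the other activity genes measured in both tissues (points). Among the Nr4a genes, the cerebellum value runs from 0.59 for Nr4a1 to 1.45 for Nr4a3, and Fosl2 at 1.15 is the activity gene that passed there.

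Between tissues the activity genes split. In the wild type 19 of 35 passed as higher and 9 as lower in hippocampus (beside 33.1% and 33.0% of all genes), with a median log2 fold change of 1.19. The clearest was Egr3, a zinc finger factor, at 127 ± 4.71 in hippocampus against 0.523 ± 0.12 CPM in cerebellum. Fosl2 (3.02 ± 0.07), Ptgs2, an enzyme of prostaglandin synthesis (5.20 ± 0.14), and Nptx2, a secreted pentraxin (4.37 ± 0.14), were also higher in hippocampus. In the knockout 21 passed as higher and 10 as lower, led by Egr3 (6.75), Dusp5 (-2.02), Fosl2 (1.96) and Klf10 (2.02). The high hippocampal level of the Nr4a genes is thus shared by some but not all activity genes.

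Genes that CREB induces and that feed back on its pathway did not pass in either tissue by genotype with edgeR (0 of 9 each, 2 with an unadjusted p under 0.05 each; DESeq2 and limma-voom called 0). In the hippocampus 5 of 9 lay above 0 with a median log2 fold change of 0.0052, beside 50.8% of all genes above 0. Per1 and Per2, period genes of the clock, had 0.30 ± 0.06 and 0.33 ± 0.12 in the hippocampus, and Per2 had 0.18 without wild-type library 3. In the cerebellum 9 of 9 lay above 0 with a median of 0.23, beside 51.0% of all genes above 0, and 7 to 9 of 9 with a median of 0.12 to 0.31 when 1 library was left out. Per1 had 0.40 ± 0.17 there, and 0.19 without wild-type library 3, which held 65.1 CPM of it against 105 and 113 CPM in the other wild-type libraries. Pde10a, a phosphodiesterase, had 0.28 ± 0.12, and 0.11 without knockout library 1. Between wild-type tissues 3 of 9 passed as higher in hippocampus, a share close to the 33.1% of all genes: Rgs2, a brake on G protein signals (1.30 ± 0.08), Gem, a small GTPase (2.24 ± 0.37), and Pde4d (0.17 ± 0.07). In the knockout Rgs2 (2.01-fold) and Gem (2.34 on the log2 scale) were higher and Per1 (-0.24) lower in hippocampus.

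The machinery that drives the family showed no call by genotype. Of 16 measured transcription factors and coactivators (CREB, Crtc, Srf, Mef2 and their partners), 0 passed in either tissue with edgeR, 1 had an unadjusted p under 0.05 in each, and DESeq2 and limma-voom called 0. In the hippocampus 11 of 16 lay above 0 (median 0.020), and in the cerebellum 6 of 16 (median -0.019). Srf, the serum response factor, had 0.14 ± 0.05 and Elk4, its partner, 0.11 ± 0.07 in the hippocampus. Crtc1, a coactivator of CREB, had -0.16 ± 0.07 and Mrtfa, a coactivator of Srf, -0.13 ± 0.07 in the cerebellum. Of 18 calcium, cAMP and ERK kinases and calcineurin subunits 0 passed in either tissue (1 and 0 with an unadjusted p under 0.05; DESeq2 and limma-voom called 0). Camk4, a nuclear calcium-dependent kinase, had -0.12 ± 0.05 in the hippocampus and -0.15 ± 0.09 in the cerebellum, Prkaca, the catalytic subunit of protein kinase A, -0.07 ± 0.04 in the hippocampus, and Ppp3ca, a calcineurin subunit, -0.12 ± 0.07 in the cerebellum.

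By tissue, 9 of 16 factors passed as higher and 6 as lower in wild-type hippocampus, beside 33.1% and 33.0% of all genes, and the same numbers passed in the knockout, beside 31.6% and 32.5%. Mrtfb (2.27 ± 0.05), Mrtfa (1.72 ± 0.07), Mef2c (2.23 ± 0.09) and Srf (0.91 ± 0.05) were higher in wild-type hippocampus, and in the knockout they had 2.13, 1.85, 2.20 and 1.10. Of the kinases 13 of 18 passed as higher and 5 as lower in each genotype, beside the same shares of all genes. Camk2a, the synaptic calcium-dependent kinase, stood at 4123 ± 32.9 against 97.7 ± 7.78 CPM in the wild type. Ppp3r1 (1.82 ± 0.04) and Camkk1, an activator of Camk4 (1.59 ± 0.05), were higher and Rps6ka1, a kinase downstream of ERK (-3.27 ± 0.07), lower there. In the knockout Camk2a (5.34) and Ppp3r1 (1.82) were higher and Rps6ka1 (-3.35) lower.

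The retinoid X receptors, dimer partners of Nr4a1 and Nr4a2, did not pass by genotype: with edgeR 0 of 3 in each tissue, 0 with an unadjusted p under 0.05, and 0 with DESeq2 or limma-voom. Rxra stood at 41.2 ± 1.38 against 42.7 ± 0.743 CPM in the hippocampus and 24.8 ± 3.46 against 24.6 ± 1.64 CPM in the cerebellum. Rxrb had -0.05 ± 0.05 and -0.01 ± 0.05, and Rxrg, near 1 CPM or below in the cerebellum, -0.29 ± 0.19 and 0.51 ± 0.45. By tissue Rxra (0.80 ± 0.06) and Rxrg (3.15 ± 0.26) were higher in wild-type hippocampus, as in the knockout (0.73 and 2.34), while Rxrb had 0.01 ± 0.05 and -0.04 ± 0.05.

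Corepressors that can bind Nr4a receptors or their partners also gave no call by genotype (0 of 12 in each tissue with edgeR, 1 with an unadjusted p under 0.05 in each, 0 with DESeq2 or limma-voom). In the hippocampus 9 of 12 lay above 0 (median 0.048), and in the cerebellum 2 of 12 (median -0.051). Rcor2 had 0.20 ± 0.09 and Hdac5, a histone deacetylase, 0.09 ± 0.06 in the hippocampus, and Rcor1 had -0.16 ± 0.07 and Hdac4 -0.24 ± 0.12 in the cerebellum. In wild-type tissue 4 of 12 passed as higher and 2 as lower in hippocampus, beside 66.1% of all genes in either direction, with Rcor2 (2.09 ± 0.12) and Hdac3 (0.24 ± 0.05) higher and Rcor1 (-0.37 ± 0.09) lower. In the knockout 7 were higher and 0 lower, beside 31.6% and 32.5% of all genes, among them Rcor2 (2.36), Hdac3 (0.20) and Hdac4 (0.33).

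Genes that Nr4a2 is known to drive in dopamine neurons gave no call by genotype. Of 7 measured in the cerebellum 0 passed with edgeR (3 with an unadjusted p under 0.05, of which 2 were higher in the knockout), and DESeq2 and limma-voom called 0. Their median log2 fold change there was 0.35, with 5 of 7 above 0, beside 0.0025 and 51.0% above 0 over all genes. The median was 0.08 without knockout library 2 and 0.46 without knockout library 3. Ddc, a decarboxylase of monoamine synthesis, stood at 6.70 ± 1.21 against 3.96 ± 0.848 CPM (0.77 ± 0.19), and Slc18a2, the vesicular monoamine transporter, at 9.09 ± 3.89 against 5.04 ± 0.504 CPM (0.85 ± 0.26, and 0.47 without knockout library 2). Both are also made by brainstem neurons, whose marker sums stood highest in knockout libraries 1 and 2, and that part was not tested. In the hippocampus 0 of 8 passed with edgeR (0 with an unadjusted p under 0.05), and DESeq2 and limma-voom called 0. There 3 of 8 lay above 0 with a median of -0.074, beside 50.8% of all genes above 0. Gch1, an enzyme of cofactor synthesis, had -0.34 ± 0.24 and Th, tyrosine hydroxylase, 0.54 ± 0.48. Between wild-type tissues 3 of 8 were higher and 3 lower in hippocampus, beside 66.1% of all genes in either direction. Aldh1a1, an aldehyde dehydrogenase (-2.12 ± 0.05), Ret, a growth factor receptor (-2.71 ± 0.11), and Th (-4.29 ± 0.26) were lower, and Vip, a peptide of interneurons, stood at 16.3 CPM in hippocampus and below the floor in cerebellum. In the knockout Aldh1a1 (3.99-fold lower), Ret (-2.82) and Th (-4.11) were lower and Vip higher, at 13.7 to 18.2 CPM against 0 to 1.07 CPM in cerebellum.

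Among 26 other nuclear receptors of brain, 0 passed by genotype in the hippocampus and 0 of 25 in the cerebellum with edgeR (1 and 3 with an unadjusted p under 0.05; DESeq2 and limma-voom called 0). Their median log2 fold changes were -0.00295 (hippocampus) and -0.0122 (cerebellum), beside 0.0017 and 0.0025 over all genes. Nr1h2, a sterol sensor, had -0.14 ± 0.07 and Nr6a1 -0.25 ± 0.12 in the hippocampus, and Nr6a1 had -0.47 ± 0.11 and Nr2c2 -0.16 ± 0.05 in the cerebellum. Between wild-type tissues 7 of 26 were higher and 13 lower in hippocampus, beside 33.1% and 33.0% of all genes, with Nr3c2, the mineralocorticoid receptor (2.62 ± 0.06), and Thrb, a thyroid hormone receptor (2.21 ± 0.07), higher and Esrrg (-2.14 ± 0.06) lower. In the knockout 8 were higher and 14 lower, led by Nr3c2 (2.66), Thrb (2.16), Esrrg (-2.11) and Nr2e1, a factor of neural stem cells, at 18.4 against 0.0368 CPM.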

How the data were processed

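Poly(A) RNA of hippocampus and cerebellum was sequenced from 6 mice. The authors deposited a raw count for each gene, made with Trimmomatic 0.39, STAR 2.7.10 and featureCounts 2.0.3 on mm10 and GRCm38, per the submitters' processing notes. Annotation release and strand setting: not given in the sources used here. Of 54446 identifiers 54409 matched GENCODE M21.

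Totals were 24355572 to 34971359 counts per library, and floors of 3 counts cover counting error only. Replicate libraries come from separate animals, and their chi-square per gene was 4.11 to 12.7, so none was a copy.

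Each comparison was fitted over all genes with edgeR 4.0.16 in R 4.3.3 (filterByExpr with minimum count 10 and minimum total 15, TMM, quasi-likelihood test, Benjamini-Hochberg, called under 0.05, two-sided), with each SE taken from the log2 change and its F statistic. Alternatives used DESeq2 1.42.0, limma 3.58.1 voom, RLE factors, other filters, covariates, blocks and left-out libraries. The fits were tested on simulated data.

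Same-numbered cerebellum libraries of the 2 genotypes, from different animals, deviated together (r of 0.161 to 0.346, above 0.1 in 3 of 3 pairs). No label states a pairing, although running numbers in the column headers place same-numbered libraries next to each other. Knockout library 2 with wild-type library 1, of unlike number, had r of 0.113. The library number was tried as a block in an alternative fit. Libraries of the 2 tissues are paired by animal, from the numbers in the labels (r of 0.051 to 0.135).

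The members, the gene lists and the tests were chosen with earlier results of these data known. By rule the text names the members, the 5 genes most like each (Pearson's r of log2 CPM, prior count 2, at least 1 CPM in each tissue, predicted genes left out), and from each pathway list up to 4 called genes by smallest p, or else the 2 of smallest unadjusted p by genotype. A few genes that this rule names are not reported here. Promoter windows come from RefSeq on GRCm38.p6; protein sequences were not used here. Python 3.11.15 and matplotlib 3.10.9 made tables and figures.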

Additional observations from a re-analysis of the deposited data

Results flagged for a closer look

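Among the genes named, the genotype difference itself differed between tissues for a pair of genes by the edgeR test over all 12 libraries. The log2 value of the cerebellum exceeded that of the hippocampus by 0.89 for Cck, one of the genes most like Nr4a2, and by 1.05 for Fosl2, an activity gene.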

How the results depend on the processing

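The tissue differences of all 3 members kept their direction and stayed past the threshold under all 12 alternatives in each genotype (wild-type log2 values of 1.09 to 1.38 for Nr4a1, 1.22 to 1.47 for Nr4a2 and 2.14 to 2.95 for Nr4a3), the animal as a replicate block included. By genotype, 0 members were called in the hippocampus with all libraries, and 0 to 0 with 1 library left out. Without a filter on low counts 1 was called (Nr4a1, edgeR adjusted p = 1.28e-08). With the library number as a replicate block 1 was called (Nr4a1, edgeR adjusted p = 0.0390). Same-numbered hippocampus libraries were not alike (r of -0.039 to 0.068, 2 of 6 samples best with their own number). Nr4a2 ran from -0.033, a reversal without knockout library 3, to 0.304 without wild-type library 3. In the cerebellum, where 0 were called, 2 were called with DESeq2, 3 without a filter, 2 with the replicate block, 2 with the brainstem covariate and 0 to 1 with 1 library left out. For the difference between tissues 2 were called without a filter and 0 to 0 with 1 library left out, and the animal block changed no call. Without a filter the SE of the members was 0.05 to 0.07 in the genotype fits; the cause was not tested. Over all genes, the hippocampus count of 0 (767 with an unadjusted p under 0.05) became 2 with DESeq2, 77 without a filter, 2 with the block and 0 to 2 with 1 library left out. The cerebellum count of 2 became 36 with DESeq2, 417 without a filter, 36 with the block, 60 with the covariate, 4 with all 12 libraries in one fit and 2 to 33 with 1 library left out, the 33 without knockout library 3. The count of 2 for the difference became 9, 275 (DESeq2, no filter) and 2 to 44. Of the pathway lists by genotype, 1 to 2 activity genes were called in the cerebellum with 1 library left out, Fosl2 each time, against 0 in the hippocampus and 0 genes of the other lists in either tissue; these runs, and those without 1 animal, were chosen after seeing the data.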
